A study of Mus musculus with 20 samples.

Results

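Gastrocnemius muscle of Opg-/- mice (the Tnfrsf11btm1Smoc genotype) was compared with that of WT mice (C57BL/6) in the limb whose sciatic nerve had been cut, called den here. The comparison uses the 5 Opg-/- den libraries and the 5 WT den libraries, 10 of the 20 RNA sequencing libraries of the study, chosen by their labels alone. The mice were male and 12 weeks old, the right sciatic nerve was transected, and the muscle was taken at day 7. The other 10 libraries are from the left limb, where the nerve was only exposed (sham), 5 from Opg-/- mice and 5 from WT mice. The allele is given for the whole animal, so both limbs of an Opg-/- mouse carry it. Both limbs of each mouse were taken, so den and sham libraries may come from the same animals. Homozygous Opg-/- mice and WT mice came from the same supplier.

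Osteoprotegerin (OPG), encoded by Tnfrsf11b, is a secreted decoy receptor that binds RANKL (Tnfsf11) and keeps it from its receptor RANK (Tnfrsf11a), which signals through TRAF6 to NF-kappaB. The axis is known best from bone, where loss of OPG leaves osteoclasts unchecked, and RANK is also made by skeletal muscle. Cutting the motor nerve starts atrophy of the muscle fibers, in which the ubiquitin ligases atrogin-1 (Fbxo32) and MuRF1 (Trim63) mark proteins for the proteasome. The question addressed is which transcripts of denervated muscle differ when OPG is missing.

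The values are a signal, namely read counts per gene that the authors divided by 1 scaling factor per library. The 10 den libraries held 16335722 to 18991313 recovered reads and 17001 to 17385 genes above 0. The 12 skeletal muscle fiber markers summed to 1149735 to 1510147 in Opg-/- den and to 1209069 to 1574898 in WT den, so both groups carry the labelled tissue. On the first principal component of the 10 libraries, with 17.3% of the variance, Opg-/- den 1 and WT den 4 stood apart from the rest, 1 library from each group. On the second component, with 12.8% of the variance, the Opg-/- den libraries lay at 0.197 to 42.8 and 4 of the 5 WT den libraries at -28.1 to -17.8, with WT den 4 at 4.79 among the Opg-/- den values. Pairs of libraries of the same genotype correlated at 0.978 to 0.984 across genes, and pairs of unlike genotype at 0.978 to 0.983. Counts of the first 2 WT sham libraries agreed within sampling noise, so their mean stands for 1 sample and WT sham has n = 4.

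The targeted gene did not separate the genotypes. Tnfrsf11b (ENSMUSG00000063727, chromosome 15, 54250619 to 54278484, minus strand of mm10) had a signal of 1.89, 6.89, 4.86, 11.9 and 4.38 in Opg-/- den, against 5.15, 1.73, 3.21, 5.60 and 6.38 in WT den. These values stand for 2 to 14 reads per library in Opg-/- den and 2 to 8 reads per library in WT den. All WT den values but 1 lay within the Opg-/- den range, and Opg-/- den 2 and 4 lay above the highest WT den value. Its log2 fold change was 0.29 (SE 0.42, exact permutation p = 0.54, two-sided, n = 5 each). In sham muscle it averaged 8.78 ± 2.0 in Opg-/- and 2.75 ± 1.90 in WT (SD, n = 5 and 4) without overlap, which did not pass the limma test (adjusted p = 0.19). In neither limb was it lower in the libraries labelled Opg-/-. Reads from any transcript left by the allele still count for the gene, and muscle makes little of it, so this signal does not check the labels.

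Few genes differed between the den groups. Of 17948 genes tested with limma, 11 passed an adjusted p of 0.05, which is 0.0613% of them, 6 higher in Opg-/- den (0.0334%) and 5 lower (0.0279%). Leaving out single libraries gave 5 to 14 such genes, the fewest without Opg-/- den 2. In a fit of the den groups alone Grb10, Tet2, Sqle and 6030458C11Rik were not called, with libraries scaled to equal totals Tet2 and Sqle were not, and without a filter on low values Tet2, Sqle and Rbm3 were not. Deptor, Nbea, Med30, 6030458C11Rik and Gm29562 fell, and Gm16867, Grb10, Tomt, Tet2, Rbm3 and Sqle rose. Of these 11, 4 also changed by more than 1 on the log2 scale, namely Gm16867, Nbea, Tomt and Sqle. At an unadjusted p under 0.05 there were 1237 genes, 678 higher and 559 lower. The median log2 fold change over all genes was 0.0026, and 72.9% of genes lay within 0.25 of 0. For comparison, 19 genes passed the same test between Opg-/- sham and WT sham, which is 0.106% of those tested. Of the 11 genes called between the den groups, 9 had a log2 fold change of the same sign in sham muscle.

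**Figure D1:**
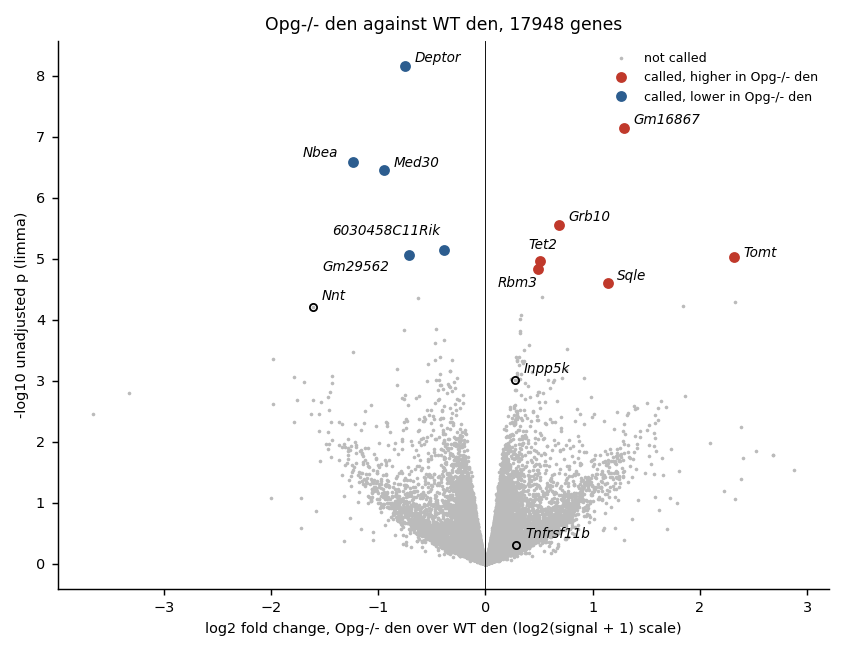
Log2 fold change of Opg-/- den over WT den (x axis, log2(signal + 1) scale) against -log10 of the unadjusted limma p (y axis), 1 point for each of 17948 genes. Filled points are the 11 genes called at an adjusted p under 0.05, 6 higher and 5 lower, and open circles mark Nnt, Inpp5k and Tnfrsf11b, which were not called.

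Among the 5 genes that fell, Deptor, which encodes an inhibitor bound to both mTOR complexes, had the smallest p of all 17948 genes tested. Its signal was 1371, 1339, 1315, 1217 and 1457 in Opg-/- den, against 2235, 2766, 2092, 2012 and 2212 in WT den. The highest Opg-/- den value lay well below the lowest WT den value. Deptor fell by 0.75 on the log2 scale (SE 0.09, adjusted p = 0.000123). The exact permutation p was 0.00794, the smallest that 5 against 5 libraries can give. Any gene without overlap has that p, so it adds nothing to the lack of overlap. In sham muscle it averaged 1278 ± 180 in Opg-/- and 1659 ± 144 in WT, and these groups did not overlap either (log2 fold change -0.38, adjusted p = 0.12). The levels of the denervated WT limb were thus the highest of the 4 groups.

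Nbea, a large scaffold protein of vesicle traffic known from neurons, had a signal of 95.8, 102, 93.0, 105 and 86.4 in Opg-/- den. In WT den it was 306, 276, 163, 159.5 and 280.1. All 5 Opg-/- den libraries sat in a narrow band, while the WT den libraries fell into 3 high and 2 lower ones. Nbea fell by 1.23 (SE 0.17, adjusted p = 0.00156), and in sham muscle the log2 fold change was -0.30 (adjusted p = 0.54). Mab21l1 and an antisense RNA lie within its span on the other strand, and Mab21l1 had a mean of 25.1 over the den libraries.

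Med30, a subunit of the Mediator complex that links transcription factors to RNA polymerase II, had a signal of 111, 102, 92.3, 103 and 72.7 in Opg-/- den. In WT den it was 163, 199, 162, 223 and 179, with no overlap. It fell by 0.94 (SE 0.14, adjusted p = 0.00161). The protein-coding gene 6030458C11Rik averaged 696 ± 49.8 in Opg-/- den and 910 ± 58.0 in WT den (SD, n = 5 each) and fell by 0.39 (adjusted p = 0.021). The long noncoding RNA Gm29562 averaged 199 ± 34.8 in Opg-/- den and 324 ± 41.9 in WT den and fell by 0.71 (adjusted p = 0.021). Both had no overlap between the groups. In sham muscle Med30 had a log2 fold change of -0.485 (adjusted p = 0.21). That of 6030458C11Rik was -0.31 (adjusted p = 0.095), also without overlap, and that of Gm29562 was -0.44 (adjusted p = 0.22). Leaving out single libraries ended the call of 6030458C11Rik for 5 of 10 (Opg-/- den 2, 4 and 5, WT den 4 and 5; adjusted p 0.052 to 0.0933). It ended that of Gm29562 for 6 of 10 (Opg-/- den 1, 2 and 3, WT den 1, 3 and 4; adjusted p 0.0546 to 0.0951).

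Among the 6 genes that rose, Grb10, an adaptor that binds the insulin and IGF1 receptors and restrains their signaling, had a signal of 2182, 2594, 2690, 2437 and 2623 in Opg-/- den. In WT den it was 1902, 2005, 1286, 1273 and 1446. Grb10 rose by 0.69 (SE 0.11, adjusted p = 0.00997), and WT den again had 2 levels, with libraries 1 and 2 nearest to Opg-/- den. In a fit of the den groups alone Grb10 was no longer called (adjusted p = 0.114), nor with a replicate block added to that fit (adjusted p = 0.278). Sham muscle held 904 ± 96.4 in Opg-/- and 779.5 ± 60.7 in WT, far less than either den group.

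Gm16867, a predicted protein-coding gene, had 120.4, 119.8, 143, 119 and 139.7 in Opg-/- den and 64.4, 36.4, 61.2, 59.4 and 42.8 in WT den. It rose by 1.29 (SE 0.18, adjusted p = 0.000638), and it was also higher in Opg-/- sham than in WT sham (log2 fold change 0.94, adjusted p = 0.0396). It was the 1 gene of the 11 that passed the test in both limbs. Its span (chromosome 14, 69363504 to 69503362, minus strand) runs over 3767 bases of Entpd4 on the other strand, and 26.3% of its 31-base transcript windows also occur in Entpd4 transcripts. The libraries were not strand-specific, and 6 of the 11 called genes have exon bases in common with a gene on the other strand. Reads from the stretches that Gm16867 and Entpd4 share cannot be told apart, so the value of Gm16867 is uncertain. Entpd4 is taken up again below among genes that differ between substrains.

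Tomt, whose product is known from hearing and is needed in the hair cells of the inner ear, had 5.11, 4.65, 2.30, 6.02 and 2.90 in Opg-/- den and 0 in all 5 WT den libraries. Tomt passed the filter on low values only through Opg-/- den, since 1 library of each sham group was above 0. Its call and fold thus describe a gene kept for being high in that group. The signal amounts to 24.1 estimated reads in Opg-/- den and 0 in WT den. With 3 reads set in place of the 0 of WT den, the share of reads was 8.23-fold higher in Opg-/- den. That ratio takes the 24.1 estimated reads as exact, so it is no lower bound. Of its exons, 1981 of 2857 bases also lie in exons of Anapc15 on the other strand, which had a mean of 177.6. Anapc15 had a log2 fold change of 0.06 (adjusted p = 0.98). Without any one of 7 libraries (Opg-/- den 1, 2 and 4, WT den 1, 3, 4 and 5), the adjusted p of Tomt was 0.0502 to 0.104.

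Sqle, squalene epoxidase of the cholesterol synthesis pathway, had 38.8, 52.6, 38.1, 41.6 and 47.3 in Opg-/- den and 13.7, 24.3, 27.2, 12.1 and 22.3 in WT den. The groups did not overlap, and Sqle rose by 1.15 (SE 0.23, adjusted p = 0.0411). In sham muscle it was 33.4 ± 3.40 in Opg-/- and 20.1 ± 2.92 in WT, with no overlap as well (adjusted p = 0.26). Its call was lost without any library except WT den 2 or WT den 3 (adjusted p 0.0634 to 0.159 for the other 8).

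**Figure D2:**
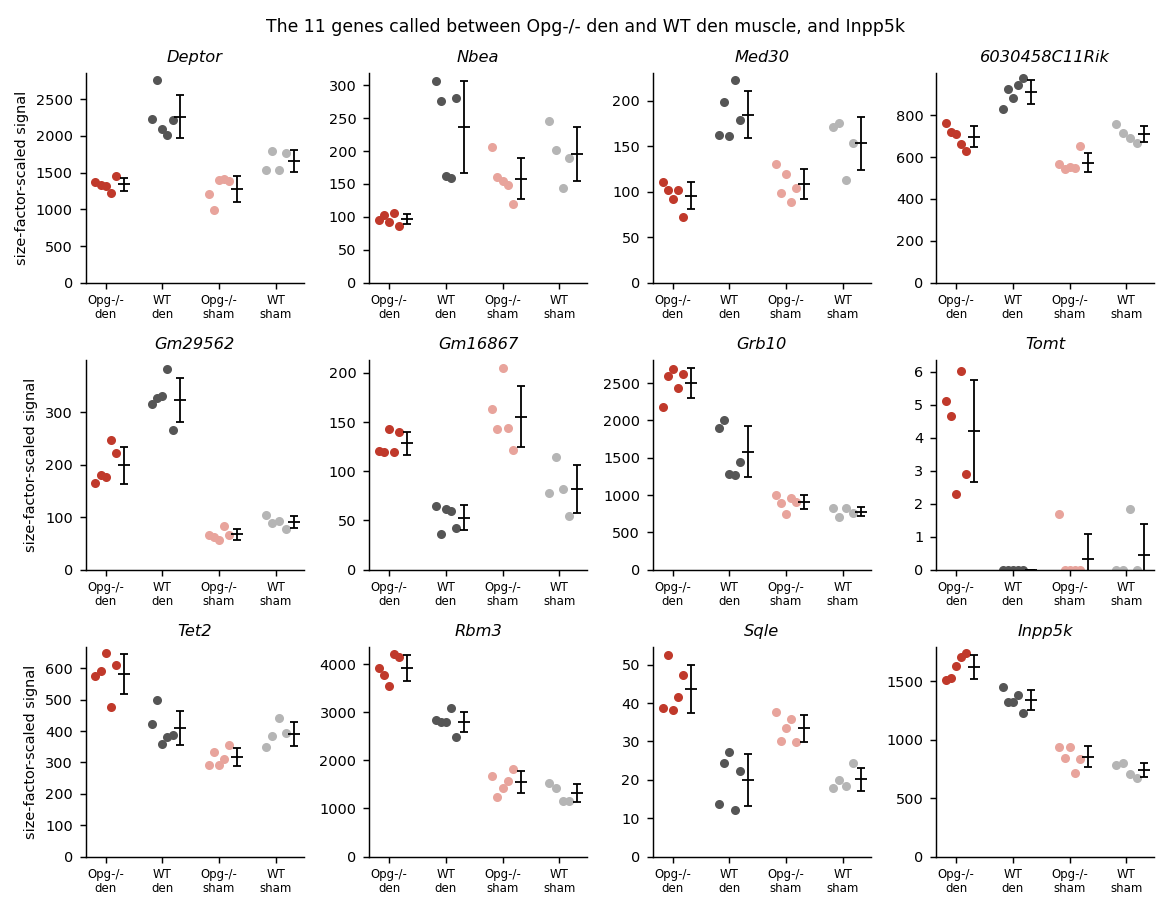
Signal (y axis, linear, from 0) of the 11 called genes and of Inpp5k in Opg-/- den, WT den, Opg-/- sham and WT sham. Each point is 1 library, WT sham 1 and 2 are 1 averaged point, and the bar is the mean ± SD. Tet2 is the called gene whose den groups overlap, and in Tomt all WT den libraries are at 0.

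The study followed 4 genes by PCR, Deptor, Inpp5k, Rbm3 and Tet2, and chose them on these same libraries, so their counts here are no independent evidence of a direction. The designed primers are shown because they mark the stretch of each transcript that was amplified. They are written 5′ to 3′ in lower case, as no base within them is singled out.
Deptor forward: atagacggcaccatctcaaaac
Deptor reverse: gtcggctaatttctgcatgagt
Inpp5k forward: cagcacggagacaggaacac
Inpp5k reverse: aggccacattccacgtcac
Rbm3 forward: cttcgtaggagggctcaactt
Rbm3 reverse: ctcccggtccttgacaacaac
Tet2 forward: gtgctgctggattcattcaaag
Tet2 reverse: gtatggctgatgggagaaggtg
Placed on the GENCODE M21 transcripts by exact match, the Deptor pair lies in 4 of 4 transcripts and spans 128 bases. The Inpp5k pair lies in 3 of 7 transcripts (124 bases), the Tet2 pair in 3 of 10 (138 bases) and the Rbm3 pair in 10 of 11 (103 or 378 bases, by transcript). The sequencing values, by contrast, sum reads over all transcripts of a gene.

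Tet2, a dioxygenase that oxidizes 5-methylcytosine in DNA, had a signal of 575, 592, 650.2, 478 and 611 in Opg-/- den, against 423, 498, 358, 382 and 388 in WT den. It is the called gene whose groups overlapped, because Opg-/- den 4 lay below WT den 2. Tet2 rose by 0.50 (SE 0.09, adjusted p = 0.0221, exact permutation p = 0.0159). In sham muscle the difference ran the other way, with 316 ± 28.3 in Opg-/- and 391 ± 37.9 in WT (log2 fold change -0.30, adjusted p = 0.24). The den difference minus the sham difference was 0.81, with an adjusted p of 0.047, and Tet2 was the 1 gene of 17948 to pass that test of the difference. At an unadjusted p under 0.05 there were 1249 such genes. That model holds no term for the mouse. The den minus sham difference was also taken per replicate number, in a fit added after seeing the data. The value for Tet2 was then 0.85 (adjusted p = 0.465), or 0.98 (adjusted p = 0.253) with WT 1 and 2 left out. The call was lost in both. These fits had 5 Opg-/- and 4 or 3 WT differences and no trend option, and 0 genes passed in either. In other fits the adjusted p of its den difference was 0.086 with the den groups alone, 0.0808 with equal totals and 0.0507 with no filter. Its call between the den groups was lost without any library except Opg-/- den 4 or WT den 2 (adjusted p 0.0541 to 0.106 for the other 8).

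Of the 11 called genes, 6 had a start-site window in the RefSeq table of GRCm38.p6, which gives 250 bases before and 50 after each start. The Tet2 window is shown because Tet2 is called between the den groups, and because CpG, the letters CG that TET enzymes and DNA methyltransferases act on, is dense in it. It lies at chr3:133544341-133544640 on the minus strand and is written 5′ to 3′ with each CG in capitals.
Tet2 start-site window: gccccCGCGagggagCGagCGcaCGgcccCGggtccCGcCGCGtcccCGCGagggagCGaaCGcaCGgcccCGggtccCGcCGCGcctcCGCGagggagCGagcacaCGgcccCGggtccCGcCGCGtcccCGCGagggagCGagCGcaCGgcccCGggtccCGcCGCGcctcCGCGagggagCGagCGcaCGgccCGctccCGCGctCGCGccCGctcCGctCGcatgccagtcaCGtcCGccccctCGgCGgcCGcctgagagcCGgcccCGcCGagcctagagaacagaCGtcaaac
The window holds 57 CG, and 0.152% of 32851 windows hold as many or more, against a median of 7 per window. It was chosen in part for this density, so the rank describes the window and is no test. At least 1 CG was present in 94.6% of windows. The windows of Grb10, Nbea and 6030458C11Rik held 45, 36 and 33, and those of Tomt and Gm16867 held 8 and 5. These are letter counts on 1 strand, which read the same on the other, and no methylation was measured here.

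Rbm3, an RNA-binding protein induced by cold, had 3921, 3773, 3554, 4202 and 4150 in Opg-/- den and 2830, 2792, 2791, 3086 and 2488 in WT den. Every Opg-/- den library lay above every WT den library. Rbm3 rose by 0.49 (SE 0.09, adjusted p = 0.026, exact permutation p = 0.00794). Sham muscle held 1543 ± 227 in Opg-/- and 1316 ± 191 in WT. The call was kept without Opg-/- den 3 and without WT den 4 and was lost for the other 8 libraries (adjusted p 0.0606 to 0.118). Cirbp, the related cold-inducible protein, had 1352 ± 84.5 in Opg-/- den and 1287 ± 99.5 in WT den (adjusted p = 0.94).

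Inpp5k, a phosphatase that removes the 5-phosphate of PIP3 and so restrains insulin signaling, had 1512, 1529, 1632, 1708 and 1740 in Opg-/- den. In WT den it was 1450, 1320, 1323, 1386 and 1226. The groups did not overlap and the exact permutation p for the single gene was 0.00794. The log2 fold change was 0.28 (SE 0.07), and with all 17948 genes in the adjustment Inpp5k did not pass (adjusted p = 0.283, and 0.156 to 0.596 over single libraries left out). Values without overlap are not rare in these data, since 141 genes (0.786%) had all Opg-/- den values above all WT den values and 122 genes (0.68%) had all below.

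The place of the called genes in the genome was uneven. Of the 11, 4 lie on chromosome 15 with Tnfrsf11b, namely Deptor, Med30, Sqle and 6030458C11Rik, which is 36.4% of the called genes against 3.91% of the genes tested. Within 5 Mb of the start of Tnfrsf11b 45 genes were tested and 2 were called (4.44%, against 0.0613% of all genes). These were Deptor, 0.834 Mb to one side, and Med30, 1.57 Mb to the other. Sqle lies 5.04 Mb away and 6030458C11Rik 41.4 Mb away. Among the 45 genes within 5 Mb of Tnfrsf11b, most had log2 fold changes near 0, with a median of 0.013.

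Of the 10 tested genes whose start is within 1 Mb, Deptor was called and 9 were not. Ext1, a heparan sulfate polymerase, averaged 153 ± 29.9 in Opg-/- den and 164 ± 20.3 in WT den, and Enpp2, which makes lysophosphatidic acid, averaged 107 ± 11.1 in Opg-/- den and 104 ± 16.9 in WT den. Ccn3, a matricellular protein, had 31.8 ± 12.6 in Opg-/- den and 44.3 ± 12.5 in WT den (log2 fold change -0.49, adjusted p = 0.81). The general transcription factor subunit Taf2 averaged 302 ± 36.9 in Opg-/- den and 307 ± 10.8 in WT den. Samd12, Dscc1, Gm26684 and Gm9920 were near the limit of detection, the highest of their means being 12.2 for Samd12 in Opg-/- den.

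Farther out, Zhx2, a zinc finger repressor 3.42 Mb away, had 1875, 1333, 1391, 1409 and 2527 in Opg-/- den and 2604, 2513, 2562, 3571 and 2887 in WT den. Only Opg-/- den 5 reached the WT den range, and the log2 fold change was -0.76 (adjusted p = 0.13), while in sham muscle it was 0.14. Zhx2 passed the test when Opg-/- den 5 was left out. Washc5, next to Sqle, had a log2 fold change of 0.32 (adjusted p = 0.13). An effect of the missing OPG on these genes and an effect of chromosome 15 sequence carried along with the targeted allele cannot be told apart in these groups.

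**Figure D3:**
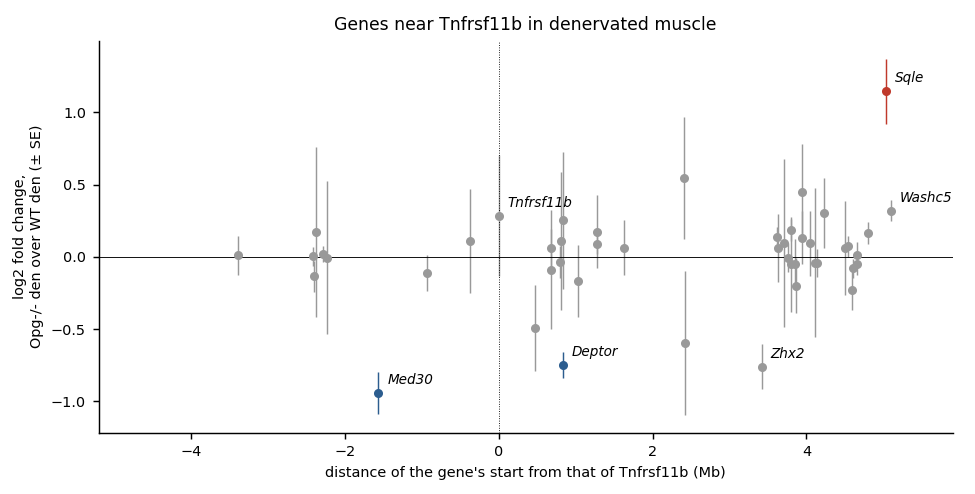
Log2 fold change of Opg-/- den over WT den with its SE (y axis) against the distance of each gene's start from that of Tnfrsf11b (x axis, Mb). Blue points fell, the red point rose and gray points were not called. Med30 and Deptor lie on either side of Tnfrsf11b and fell, Sqle at 5.04 Mb rose, and most other genes lie near 0.

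Genes known to differ between the C57BL/6J and C57BL/6N substrains were set beside these. Of 10 listed, 9 were tested and 0 called, against 0.0613% of all genes, with a median log2 fold change of 0.13. Nnt, the mitochondrial transhydrogenase that lacks exons in C57BL/6J, is split in the table over 2 gene models on nearly the same span of chromosome 13, which share their reads. The better covered model had 212, 167, 79.5, 211 and 176 in Opg-/- den and 596, 510.0, 526, 379 and 470 in WT den, a log2 fold change of -1.61 (SE 0.30, adjusted p = 0.0709). The sum of both models had 385, 373, 367, 382 and 326 in Opg-/- den and 904, 871, 793, 688.5 and 784 in WT den, with an SD of 23.9 in Opg-/- den and 84.0 in WT den, while the better covered model alone had an SD of 54.0 in Opg-/- den and 79.8 in WT den.

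Fitted as 1 gene, a choice made after seeing the data, Nnt fell by 1.13 in den muscle (SE 0.11, adjusted p = 5.31e-06). That p was smaller than the one of Deptor in the same fit (adjusted p = 6.15e-05). The sum of both Nnt models differed by -1.20 in sham muscle (SE 0.12, adjusted p = 5.65e-06), and the difference between the limbs was 0.065 (adjusted p = 0.95). Wdfy1, an endosomal adaptor, had 227, 192, 183, 195 and 214 in Opg-/- den and 429, 188, 407, 431 and 412 in WT den. WT den 2 alone had the level of the Opg-/- den libraries, and the adjusted p was 0.278. It passed the test when WT den 2 was left out. Entpd4 and Entpd4b, Golgi nucleotidases whose transcripts share all 31-base windows, had log2 fold changes of 0.32 and 0.29 in den muscle with no overlap (adjusted p = 0.135 and 0.283). In sham muscle both were higher in Opg-/- (adjusted p = 0.0094 each). Nnt as a sum thus differed by genotype in both limbs and Entpd4 in the sham limb. The part of strain background in the called genes was not tested.

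Of 25 listed genes of the OPG signaling axis 24 were tested, with 13 above and 11 below 0 and a median log2 fold change of 0.014. The list had 0 calls, and since 0.0613% of all genes were called, that count alone shows nothing particular to the axis. The ligand Tnfsf11 was above 0 in 2 of 5 Opg-/- den libraries (highest 4.05) and in 2 of 5 WT den libraries (highest 0.859), too few to be tested. The receptor Tnfrsf11a had 6.62, 25.0, 23.5, 17.8 and 14.0 in Opg-/- den and 22.3, 17.3, 16.8, 11.2 and 16.7 in WT den, and all WT den values lay within the Opg-/- den range. At these levels only a large difference could have been seen.

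Lgr4, a second receptor for RANKL, averaged 282 ± 38.5 in Opg-/- den and 246 ± 25.7 in WT den and had the smallest p of the axis (log2 fold change 0.19, adjusted p = 0.72). Tnfsf10 (TRAIL), which OPG also binds, averaged 37.3 ± 9.73 in Opg-/- den and 48.6 ± 15.7 in WT den. The adaptor Traf6 averaged 389 ± 26.1 in Opg-/- den and 358 ± 25.8 in WT den, and the kinase Map3k7 (TAK1) 1297 ± 50 in Opg-/- den and 1196 ± 60.6 in WT den. Of the NF-kappaB subunits, Rela averaged 805 ± 65.5 in Opg-/- den and 881 ± 76.7 in WT den, and Nfkb1 606 ± 22.5 in Opg-/- den and 643 ± 36.9 in WT den. The feedback targets Nfkbia and Tnfaip3 had log2 fold changes of 0.23 and -0.35 (adjusted p = 0.81 and 0.80). Nfatc1, the transcription factor that RANK induces in osteoclasts, averaged 883 ± 45.8 in Opg-/- den and 852 ± 35.9 in WT den. Of 23 other TNF receptors and ligands 0 were called, against 0.0613% of all genes, and the median was -0.021.

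**Figure D4:**
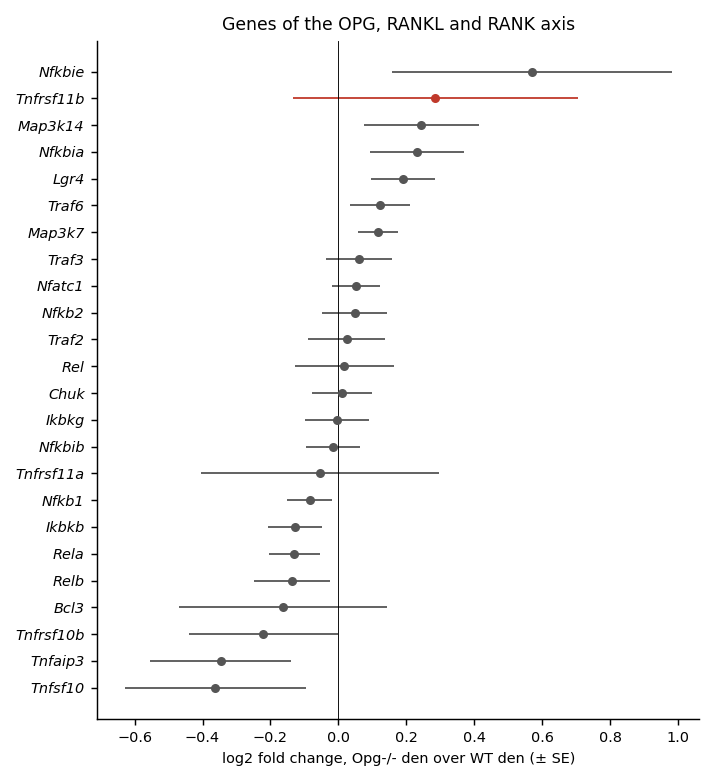
Log2 fold change of Opg-/- den over WT den (x axis, points with SE) for the 24 tested genes of the OPG, RANKL and RANK axis, in order of the change. Tnfrsf11b is in red. The smallest adjusted p was 0.724, and 13 genes lie above 0 and 11 below.

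The atrophy and proteolysis lists had medians near 0, and their 0 calls stand beside 0.0613% of all genes. Of 24 atrophy ubiquitin ligases 17 lay above 0 and 7 below, with a median log2 fold change of 0.036 beside 0.0026 over all genes. Fbxo32 (atrogin-1) had 48299, 46953, 39762, 32584 and 47861 in Opg-/- den and 36406, 30232, 41107, 44486 and 43965 in WT den. Trim63 (MuRF1) averaged 38863 ± 6973 in Opg-/- den and 37451 ± 7856 in WT den. The groups overlapped in both genes, although Opg-/- den 1, 2 and 5 lay above every WT den value of Fbxo32 (adjusted p = 0.95 and 0.99). The log2 fold changes of 32 proteasome subunits ran from -0.083 to 0.073. Among 34 autophagy and lysosome genes (median 0.0078), the protease Ctsl, with 8958 to 11979 in Opg-/- den and 7947 to 8790 in WT den, had a log2 fold change of 0.28 (adjusted p = 0.228).

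Calls in the next lists stand beside 0.0613% of all genes, so a count of 0 shows nothing particular to a list. These lists were chosen with earlier results of these data known. Of 26 genes of the mTOR complexes and their regulators Deptor was the 1 called, and the list median was 0.0052. Mtor itself averaged 2070 ± 195 in Opg-/- den and 2016 ± 216 in WT den. Of 26 genes of IGF1 and insulin signaling 1 was called, Grb10, with 18 genes above 0 and 8 below and a median of 0.033. The insulin receptor Insr had a log2 fold change of 0.16 (adjusted p = 0.72), and Igf1 averaged 169 ± 11.8 in Opg-/- den and 167 ± 16.2 in WT den. Of 23 phosphoinositide phosphatases 0 were called (median 0.041). Mtmr1, a 3-phosphatase of the myotubularin family, had 1858, 1851, 1815, 1878 and 2310 in Opg-/- den and 1636, 1628, 1526, 1596 and 1499 in WT den, without overlap (log2 fold change 0.30, adjusted p = 0.228).

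Among 18 DNA methylation enzymes and related factors Tet2 was the 1 called, and the median was -0.017. The calls in this and the next lists again stand beside 0.0613% of all genes. Tet3 averaged 368 ± 30.8 in Opg-/- den and 344 ± 58.4 in WT den, Tet1 was at 6.53 ± 2.70 in Opg-/- den and 8.39 ± 3.59 in WT den, and the methyltransferase Dnmt3a had a log2 fold change of -0.19 (adjusted p = 0.59). Of the TET enzymes Tet2 was the one that passed the test, and its call held in 7 of 20 alternatives. At the level of Tet1 only a large difference could have been seen. Among 23 cold-inducible and muscle splicing factors Rbm3 was the 1 called. Mbnl1, which governs splicing in adult muscle, had a log2 fold change of 0.32 (adjusted p = 0.283). Among 23 cholesterol synthesis genes Sqle was the 1 called, and the median of the list was -0.0033, which turned to 0.0057 when libraries were scaled to equal totals. No other gene of the list was called. Hmgcs1 averaged 473 ± 43.9 in Opg-/- den and 464 ± 46.9 in WT den, and Mvk had 103 to 119.8 in Opg-/- den and 129.8 to 157 in WT den (log2 fold change -0.35, adjusted p = 0.516). Srebf2, the transcription factor of the pathway, had a log2 fold change of 0.23 (adjusted p = 0.557).

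Lists of muscle identity and of the response to denervation had 0 calls, against 0.0613% of all genes, and are given by their medians. The 23 denervation response genes had a median of 0.0004, with Myog, a myogenic factor, at 2193, 2099, 1542, 2272 and 2083 in Opg-/- den and 2347, 4095, 2037, 1997 and 3212 in WT den (log2 fold change -0.38, adjusted p = 0.79). The acetylcholine receptor subunit Chrna1 had a log2 fold change of -0.08 (adjusted p = 0.97). Of 20 fast-twitch contractile genes 7 lay above 0 and 13 below (median -0.086), and of 17 slow-twitch genes 4 lay above and 13 below (median -0.13). Casq2, the calcium-binding protein of slow fibers, had 285, 246, 251, 348 and 208 in Opg-/- den and 404, 324, 391, 317 and 389.8 in WT den (log2 fold change -0.46, adjusted p = 0.283). The fast myosin Myh4 averaged 216827 ± 36032 in Opg-/- den and 222454 ± 69034 in WT den.

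Several other lists leaned to one side without any called member, where 0.0613% of all genes were called. Of 22 heat shock proteins 2 lay above 0 and 20 below, with a median of -0.14, and Hsph1 had 2160 to 2594 in Opg-/- den and 2460 to 3240 in WT den (log2 fold change -0.28, adjusted p = 0.31). Of 27 interferon response genes 6 lay above and 21 below (median -0.12), and of 25 immediate early genes 6 above and 19 below (median -0.069). Of 37 genes of collagens and fibrosis 29 lay above 0 and 8 below (median 0.12), and of 13 mitochondrially encoded genes 1 above and 12 below (median -0.048). Genes within a list vary together, so these counts are descriptions. Over all 17948 genes 9135 lay above 0 and 8761 below.

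Of 22 FoxO and glucocorticoid response genes 15 lay above 0 (median 0.12). Zbtb16, a transcription factor induced by glucocorticoids, had 2631, 3091, 2549, 2245 and 3734 in Opg-/- den and 2452, 2121, 1761, 2168 and 1261 in WT den (log2 fold change 0.56, adjusted p = 0.359). Klf15, another such factor, averaged 2137 ± 367 in Opg-/- den and 1605 ± 112 in WT den (adjusted p = 0.517). Of 34 genes of myostatin, activin and BMP signaling 22 lay above 0 (median 0.053). Tgfb1 averaged 684 ± 110.2 in Opg-/- den and 486 ± 80.0 in WT den (log2 fold change 0.49, adjusted p = 0.324), and the BMP target Id1 had a log2 fold change of -0.36 (adjusted p = 0.549). Lists of energy metabolism had medians of 0.0042 for 50 nuclear genes of oxidative phosphorylation, 0.0056 for 34 of fatty acid oxidation and the TCA cycle and -0.027 for 26 of glycolysis and glycogen.

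**Figure D5:**
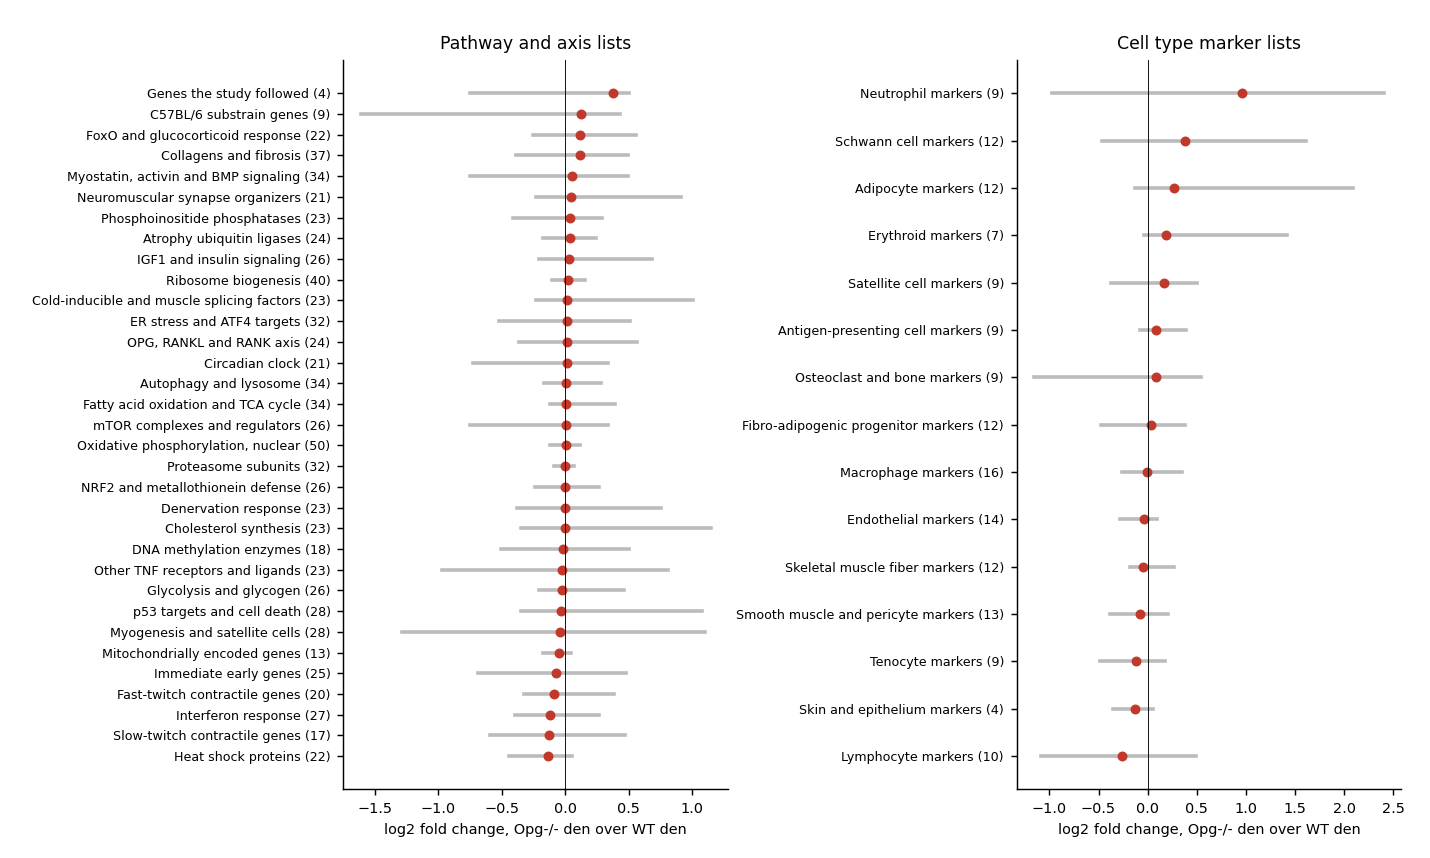
Log2 fold change of Opg-/- den over WT den (x axis) for pathway and axis lists (left) and cell type marker lists (right), with the number of tested genes in brackets. The gray line runs from the lowest to the highest member and the red point is the median, which for pathway lists lies between -0.14 and 0.38, the highest being that of the 4 genes the study followed.

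The largest differences that did not pass the test were taken from genes without overlap. These genes had an unadjusted limma p under 0.01 and a mean log2(signal + 1) of at least 5. On the higher side, Col19a1, a collagen of developing muscle, had 366, 419, 401, 363 and 659 in Opg-/- den and 301, 261, 177, 241 and 214 in WT den (log2 fold change 0.87, adjusted p = 0.522). The imprinted gene Peg3 had 3517, 2470, 1999, 2260 and 2876 in Opg-/- den and 1967, 1884, 1370, 1681 and 1945 in WT den (log2 fold change 0.55, adjusted p = 0.416). Adss, an enzyme of AMP synthesis, was nearest to the threshold at 0.52 (adjusted p = 0.0606, and 0.0473 without WT den 2). The others were Gm10382, Gm16124, Ccdc88a, Ctxn3, Klhl33, Pxdn and Teddm2, with log2 fold changes of 0.44 to 0.86.

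On the lower side stood the single Nnt model given above and 9 further genes with log2 fold changes of -0.76 to -0.51. Tppp3, a tubulin-binding protein, had 129.5, 159, 145, 115 and 132 in Opg-/- den and 221, 234, 171, 187.5 and 241 in WT den (log2 fold change -0.63, adjusted p = 0.0606, and 0.0302 without WT den 3). Socs3, a feedback inhibitor of cytokine receptors, had 193, 142, 202, 164 and 114 in Opg-/- den and 334, 218, 216, 216 and 220.0 in WT den (log2 fold change -0.57, adjusted p = 0.411). In sham muscle Socs3 fell by 1.32 (adjusted p = 0.0032), and the difference between the limbs was not past the threshold (adjusted p = 0.59). Nos2, the inducible nitric oxide synthase, had 22.7, 14.7, 24.3, 18.7 and 11.4 in Opg-/- den and 31.8, 26.0, 34.5, 28.0 and 34.3 in WT den (log2 fold change -0.76, adjusted p = 0.415). Ciart, a repressor in the circadian clock, had a log2 fold change of -0.73 (adjusted p = 0.415), and Shc2, Slc2a10, Zfp961, Rhou and Slx4ip complete the set.

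Markers of 15 cell types were read in the same libraries, and 0 were called, against 0.0613% of all genes. In whole muscle, fewer cells of a type and less RNA per cell cannot be told apart. The 16 macrophage markers had a median log2 fold change of -0.011 and summed to 3260 to 7551 in Opg-/- den and 3263 to 7186 in WT den. The 14 endothelial markers had a median of -0.040, and the 12 markers of fibro-adipogenic progenitors one of 0.030. The highest medians were 0.97 for 9 neutrophil markers, 0.38 for 12 Schwann cell markers and 0.27 for 12 adipocyte markers.

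The neutrophil markers summed to 159.5 to 524 in Opg-/- den and 203 to 312 in WT den. Of the 9 tested, 6 lay above 0 and 3 below. The granule gene Ngp was high in 2 libraries, with 0.945, 1.72, 0, 28.0 and 26.3 in Opg-/- den and 0 in every WT den library. Cxcr2 went the other way, with 5 reads over the Opg-/- den libraries and 15 over the WT den libraries. The Schwann cell markers summed to 749.7 to 1659 in Opg-/- den and 814.5 to 1051 in WT den. The adipokine gene Retn had 27.4, 35.3, 25.1, 23.7 and 22.8 in Opg-/- den and 10.3, 0, 21.6, 23.3 and 0.797 in WT den (adjusted p = 0.535), whereas Adipoq averaged 57.6 ± 9.98 in Opg-/- den and 52.3 ± 23.7 in WT den. The part of these cell types in the called genes was not tested. Of 12 markers of osteoclasts and bone 9 were tested, with 5 above 0 and 4 below (median 0.088). Acp5 had 170 reads over the Opg-/- den libraries and 126 over the WT den libraries, and Oscar had 11 and 29. Bglap and Ibsp were at 0 in all 10 den libraries.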

How the data were processed

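RNA was measured in 20 gastrocnemius libraries, prepared without strand information. As deposited, the table holds a signal per gene: the authors mapped reads to mm10 with STAR, estimated counts with RSEM and divided each library by 1 size factor. Tool versions are not given in the sources used here. About 87% of values above 0 became whole reads when divided by the value of 1 read (87.05% to 87.84% in den libraries). The table was therefore not treated as raw counts, for which alone a count test was planned. The table holds 32285 genes, 32235 of them in GENCODE M21 (GRCm38).

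Log2(signal + 1) was fitted with limma 3.58.1 (trend and robust, R 4.3.3) in 1 model of 4 groups, for 17948 genes with at least 1 in at least 4 libraries. Tests are two-sided and p is Benjamini-Hochberg adjusted. Fold changes on this scale understate low genes. WT sham 1 and 2 were averaged. Named genes are those called, the 10 largest uncalled per direction (unadjusted p under 0.01, no overlap, mean log2(signal + 1) of at least 5), axis and neighbour genes, and 3 per list, of which 3 genes are not reported here. Fbxo32, Trim63 and a few other familiar list members, neighbours and overlapping genes were named outside this rule after their values were seen. Single genes were tested by exact permutation. A simulation served as a test of the script. The members, lists and tests were chosen with earlier results of these data known. Nothing states that libraries came from separate mice, so p-values measure the spread between libraries. Python 3.11.15 made tables and figures. Alternatives were the filter, pseudocount, scaling, groups fitted, replicate block, voom on recovered reads and each den library left out.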

Additional observations from a re-analysis of the deposited data

Results flagged for a closer look

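The genotype difference of Tet2 was 0.81 larger on the log2 scale in den than in sham limbs, by the limma test of the difference (adjusted p = 0.047). The model of that test holds no term for the mouse. With limbs paired by replicate number, the adjusted p was 0.465, or 0.253 with WT 1 and 2 left out. In each of those fits 0 genes passed. Deviations of limbs of the same number correlated weakly at most (r = 0.0124 to 0.0455 in Opg-/- and -0.0484 to 0.0666 in WT). These fits thus do not show whether a mouse effect bears on the call of Tet2.

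Of 384 groups of 5 den libraries read for the named genes, 24 held 1 library far from the other 4 by Dixon's criterion, and chance gives about 1 in 20. In Opg-/- den, library 5 was far above the others for Col19a1 (659, next 419), Gm10382 (182, next 125), Klhl33 (556, next 445), Mtmr1 (2310, next 1878) and Slc4a1 (11.4, next 1.89). It was far below them for Tnfsf10 (21.0, next 37.1). Library 3 was far above for Pax3 (2.43, next 0.945), Ier2 (164, next 113), Canx (2859, next 2624) and Ms4a1 (3.24, the others at 0), and far below for the single Nnt model (79.5, next 167) and Myog (1542, next 2083). Library 1 was far below for Gjb1 (0, next 1.62) and Sox10 (35.0, next 99.1).

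In WT den, library 1 was far above for Socs3 (334, next 220.0) and far below for Hmox1 (309, next 410) and Acta1 (261928, next 307399). Library 2 was far below for Wdfy1 (188, next 407). Library 3 was far above for Irf1 (106, next 73.7) and Gjb1 (0.802, the others at 0) and far below for Clock (561, next 690). Library 4 was far below for Igfbp3 (147, next 213) and Ccn3 (22.4, next 46.2), and library 5 far above for Eng (838, next 691). None of the 11 called genes was among these.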

How the results depend on the processing

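The number of called genes was 11, and it was 8 with no filter, 10 with the strict filter, 9 with the den groups alone, 12 with equal totals and 15 with voom on recovered reads. Of the 11, 4 passed when an absolute log2 fold change above 1 was also asked. Leaving out single libraries gave 5 to 14 calls, fewest without Opg-/- den 2 (5), WT den 4 (6), WT den 5 (6), Opg-/- den 4 (7) and WT den 1 (7). Deptor, Gm16867, Med30 and Nbea were called in all 20 alternatives, Grb10 in 18, 6030458C11Rik in 13, Gm29562 in 12, Rbm3 in 10, Tet2 and Sqle in 7 each and Tomt in 9 of the 19 that tested it. No named change in direction occurred among the 32 genes followed. In a fit of the den groups alone with a replicate block 7 genes were called. Libraries of the same number did not deviate together (r = -0.088 to 0.047), so the numbers are not read as pairs. Den and sham limbs of the same genotype and number correlated weakly at most (r = -0.0484 to 0.0666). With limbs of other numbers the highest r was 0.0158 to 0.101. The den minus sham difference of Tet2 lost its call when taken per number (0.85 and 0.98). Without Opg-/- den 1 and WT den 4, a choice made after seeing the data, 13 genes were called, 6 of them among the 11. Summing models that share reads gave 12, the 11 and Nnt. Count tests with edgeR and DESeq2 were not run, since a count test was planned only for a table of raw counts. Depth limits genes such as Tnfrsf11b, Tnfsf11 and Tomt, with a few reads per library.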
